A study of Mus musculus with 4 samples.

Results

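The peaks described here are stretches of RNA bound by DHX9 close to the 3′ ends of genes. They were chosen from the 43106 peaks of the deposited list by position and by the number and strand of the peaks in their gene. A peak counted when its midpoint lay in exactly 1 RefSeq gene span (mm10), when that gene was autosomal, protein-coding and at least 10 kb long with 3 or more such peaks, and when the midpoint fell within 2000 bases before the gene end on the strand with the majority of that gene's peaks. This left 647 gene-end peaks, 1.50% of the list, in 290 of 2138 eligible genes (13.6%). A further 3 genes with equal numbers of peaks on both strands were left out. Because position and the peaks of each gene chose the members, their number and place are a description and carry no test.

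The cells were neural progenitor cells derived in N2B27 medium with EGF and FGF from WT26, a male mouse embryonic stem cell line of the C57BL/6x129sV strain. RNA bound by DHX9 was captured by FLASH, in which ultraviolet light crosslinks protein to RNA before pull-down and sequencing. One group of 2 libraries (A and B) was made with a rabbit antibody to DHX9 (DHX9-Rb) and the other, also of 2, with rabbit immunoglobulin (IgG-Rb) as background; both groups came from the same cell line. The files hold 1 peak list for the 4 libraries together, so there is no value per library, the sequencing depth is unknown and no replicate error can be given.

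DHX9 is a DExH-box helicase that opens RNA duplexes and RNA-DNA hybrids and acts from transcription to export. The 3′ end of a protein-coding gene is where the transcript is cleaved and polyadenylated, and its last kilobases often hold the final exon, which remains in the messenger RNA, whereas most of the span of a long gene is intron and is removed in the nucleus. The annotated end is the outermost end of any RefSeq transcript of the gene. The cells may use an earlier site, and exonic and intronic bases could not be separated here. Expression was not measured, so the absence of a gene-end peak means only that none was called or that the rule left it out. In 126 eligible genes, every base of the stretch before the end also lay in another gene, so no gene-end peak was possible. They were kept among the eligible genes and count as genes without a gene-end peak. In 1833 eligible genes, no base of that stretch was shared with another gene.

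No genome sequence was used, so the bases under the peaks cannot be shown. The RefSeq tables (GRCm38.p6) hold sequence within these windows at 2 kinds of place, microRNAs and promoters. Of the 2138 eligible genes, 9 had a microRNA hairpin wholly within the last 2000 bases, and 3 of these 9 also had a gene-end peak. Their mature sequences follow 5′ to 3′, with the seed (bases 2 to 8) in capitals, to show what lies beside the peaks.
mmu-miR-5125: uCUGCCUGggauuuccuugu
mmu-miR-697: aACAUCCUgguccuguggaga
mmu-miR-7041-5p: aGAGGGAAuggagacucaguuga
mmu-miR-7041-3p: uGGUUCUCuucuucccucag

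No other mature microRNA of the table shares a seed with any of the 4. The sequence of mmu-miR-5125 (chr17:23823339-23823358, plus strand) lies in Srrm2, which encodes a large scaffold protein of the spliceosome and of nuclear speckles. It is separated by 6 bases from the only gene-end peak of Srrm2 (chr17:23822971-23823332, plus strand), which is 362 bases long. In Sf3a3, a splicing factor gene, mmu-miR-697 (chr4:124731768-124731788, plus strand) lies 276 bases from the nearer of 2 peaks. In Lrig1, a gene for an inhibitor of growth factor receptors, mmu-miR-7041-3p (chr6:94606364-94606383, minus strand) lies 865 bases from the nearest of 3. A peak with its midpoint inside a hairpin would lie in 2 annotated genes and is left out by the rule.

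Promoter windows, running from 250 bases before a gene's start to 50 after it, were compared with the peaks as a check of strand. None of the 647 peaks overlapped such a window; 626 of them lay on chromosomes with entries in the table. The table gave the strand of 1711 eligible genes, and in 1704 it was the strand that held most peaks. Among the genes with gene-end peaks this held for 223 of 226. In the other 3, Adamtsl4, Prr14 and Ubtf, the peaks lay mostly opposite to the annotated strand, so that the gene end as defined here is on the side of the annotated start. In Prr14 this rested on 4 peaks against 3. In Ubtf the promoter window (chr11:102320813-102321112, minus strand) lay inside the span, 596 bases from the peak on the side away from the gene end. Each of the 3 had 1 gene-end peak. Adamtsl4 is the case that the sequence shows: its own promoter (chr3:95687868-95688167, minus strand) lies at the end of its span as the plus-strand peaks define it. The peak is 1307 bases from that window, which is printed with the bases from the annotated start on in capitals.
Adamtsl4 promoter: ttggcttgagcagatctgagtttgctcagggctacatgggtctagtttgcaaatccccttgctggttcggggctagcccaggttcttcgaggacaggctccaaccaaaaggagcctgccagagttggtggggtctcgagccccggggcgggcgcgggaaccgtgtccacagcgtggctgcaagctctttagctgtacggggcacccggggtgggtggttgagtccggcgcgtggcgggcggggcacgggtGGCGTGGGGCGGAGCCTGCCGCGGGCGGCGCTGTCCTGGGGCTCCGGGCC

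Peaks became sparser towards the gene end and much sparser past it. Between 5000 and 4000 bases before the end, the 2138 genes carried 253.0 peaks per Mb of countable bases, meaning bases in exactly 1 gene span. The density was 214.3 in the next kilobase, 192.6 between 3000 and 2000 bases, 182.3 between 2000 and 1000, and 145.9 in the last 1000. In the first 1000 bases beyond the end, counted where no gene was annotated and on the same strand, it was 35.0, and in the next 1000 it was 34.5. Over the full windows, the last 2000 bases held 647 peaks (164.5 per Mb) and the 2000 bases beyond held 113 (34.8 per Mb), a ratio of 4.73. Bins of 200 bases were compared from 5000 before the end to 2000 beyond it. The largest step between neighbours was at the annotated end itself. It ran from 35 peaks in the last 200 bases (92.5 per Mb) to 9 in the first 200 beyond it (24.8 per Mb). An upward step between 3000 and 2000 bases before the end was nearly as large, from 175.7 to 240.7 per Mb. Genes were chosen by peaks inside the span and not by peaks beyond it. The ratio of 4.73 and the drop at the end are therefore partly built in.

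**Figure D1:**
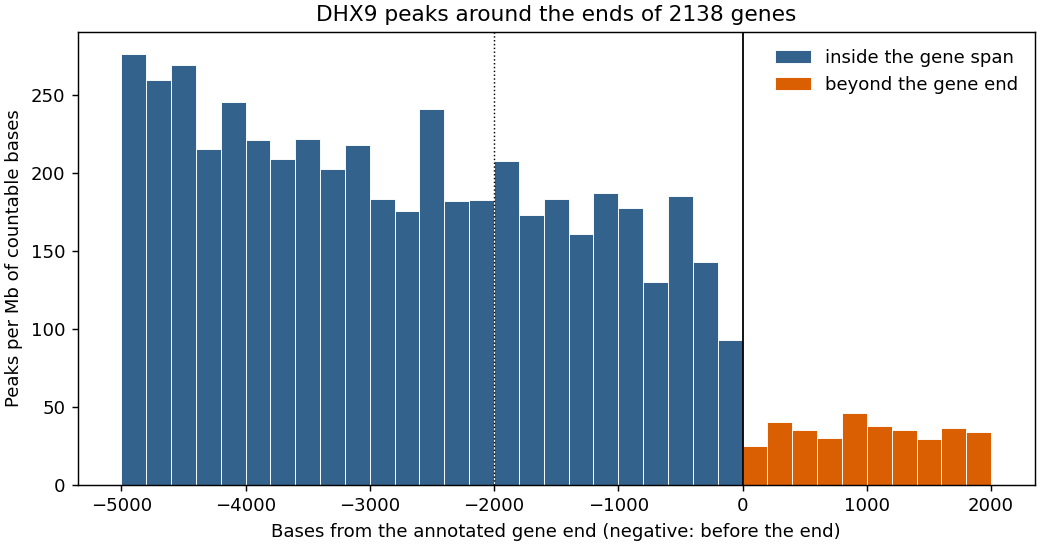
Peaks per Mb of countable bases (vertical axis) in bins of 200 bases around the annotated gene end (horizontal axis, in bases), for all 2138 eligible genes; the dotted line marks 2000 bases before the end. The bars decline unevenly towards the end and drop from 92.5 to 24.8 per Mb across it. Genes were chosen by peaks inside the span, so this drop is partly built in.

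Within the last 2000 bases the midpoints lay towards the far side of the window. The median distance to the gene end was 1105 bases, and the middle 50% lay from 599.5 to 1580 bases. Of the 647 peaks, 184 lay 1500 to 2000 bases before the end, 180 lay 1000 to 1499, 162 lay 500 to 999 and 111 lay 100 to 499. The last 100 bases held 10, each in a different gene. A long peak cannot have its midpoint there without running past the end.

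Few gene-end peaks crossed the annotated end. By the rule their midpoints lie inside it, and peaks with a midpoint beyond the end were not checked for crossing. The 3′ edge of 5 gene-end peaks lay beyond it, that of 1 peak lay on the last annotated base, and that of 4 lay 1 to 10 bases inside. The peak on the last base belonged to Igfbp2, the gene of an insulin-like growth factor binding protein (chr1:72852383-72852474, plus strand; the gene also ends at 72852474). Those within 10 bases were in Calcrl, Nfia, Slc1a3 and Serpine2, at 3, 5, 8 and 8 bases. The crossing peaks reached 28 bases past the end in Mxd4, 23 in Epn2, 6 in Akr1a1, 4 in Igf2 and 1 in Ptn. Of these genes, Mxd4 encodes a MAX dimerisation protein, Epn2 an endocytic adaptor, Akr1a1 an aldehyde reductase, Igf2 a fetal growth factor and Ptn pleiotrophin. Igf2, Ptn and Serpine2 were chosen after their values were seen. By midpoint, the 5 closest were those of Igfbp2 (46 bases), Epn2 (51), Akr1a1 (52), Mxd4 (59) and Nfia (67).

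At the other limit of the window, the last peaks inside belonged to Dpysl2 (1992 bases), Dazap1 (1998) and Nr2f2 (2000). The first outside were in Zfp771 (2003 bases), Lrp4 and Scd1 (both 2012). Zfp771 and Scd1 had no other peak in the window and so are not among the 290 genes.

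Set against the whole gene, the end window held about as many peaks per Mb as the rest when all genes were pooled, and fewer when each gene was set against itself. Pooled, the rest of the 2138 spans carried 34342 peaks, or 163.6 per Mb, beside 164.5 per Mb in the end windows. If each gene's own peaks were spread evenly over its countable bases, the end windows would hold 1220 peaks. The 647 observed make a ratio of 0.530. The pooled ratio, 1.01, lay between 0.886 and 1.23 across the alternatives tried and was below 1 in 6 of 12, so it has no settled direction. The ratio to an even spread lay between 0.469 and 0.639. Short genes carried more peaks per Mb, which is partly built in because the rule asks for 3 or more peaks at any span. They also gave a larger part of their span to the window, and both weigh on the pooled value. In genes of 10 to 20 kb, the end held 307.9 per Mb against 578.1 in the rest. In genes of 200 kb or longer these values were 41.2 and 80.1. Within each of the 5 classes of span, the ratio to an even spread was between 0.445 and 0.569. In classes by number of peaks it was between 0.406 and 0.770. Pooled within those classes, however, the end was denser than the rest in genes with 3 or 4 peaks (87.4 against 35.4 per Mb), 5 to 9 peaks (118.1 against 81.4) and 10 to 19 peaks (186.4 against 144.5). It was less dense with 20 to 49 peaks (245.9 against 271.8) and with 50 or more (448.5 against 455.1).

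**Figure D2:**
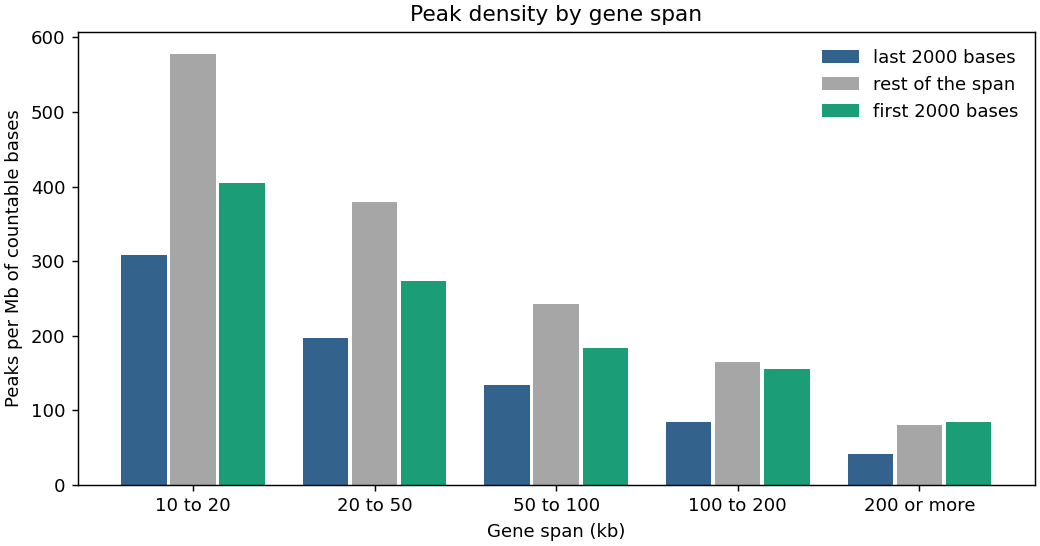
Peaks per Mb of countable bases (vertical axis) by gene span in kb (horizontal axis) for the last 2000 bases, the rest of the span (which includes the first 2000 bases) and the first 2000 bases of 2138 genes. In every class the bar for the last 2000 bases is the lowest of the 3.

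The first 2000 bases of the same genes held 920 peaks, or 233.0 per Mb, so the end window carried 0.706 times the density of the start window. A peak lay in the start window of 92 of the 290 genes with a gene-end peak (31.7%) and of 19.0% of the other 1848. The 290 genes carried more peaks in all (median 13 against 8) over shorter spans, and the difference in start windows was not tested. The share of the genes' 34989 majority-strand peaks that lay in the end window was 1.85% (95% exact binomial interval 1.71 to 2.00%). The interval covers counting error only and takes peaks as independent, which those of 1 gene are not.

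Compared within genes, the last 2000 bases held fewer peaks than the 2000 bases before them more often than the reverse. The end window had fewer in 274 genes, more in 180 and an equal number above 0 in 48, while both windows were empty in 1636. These are raw counts that do not allow for bases shared with another gene. The 126 genes without a countable base in the end window could only come out as fewer or as both empty. Per Mb of countable bases, the end windows held 164.5 peaks and the windows before them 203.1. A peak in the window before, which held 822 peaks in 380 genes, was present in 168 of the 290 genes. The last peak of a gene lay at a median of 10658.5 bases before its end over the 2138 genes, and the first peak at 7097 bases after its start.

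Genes with a gene-end peak were shorter and carried more peaks in all than the other eligible genes. Their median span was 31.0 kb against 56.5 kb, and their median number of peaks was 13 against 8. A gene-end peak was present in 24.2% of genes of 10 to 20 kb (80 of 330). The share was lower in each longer class, at 16.3%, 10.9%, 7.89% and, at 200 kb or more, 4.23% (11 of 260). By the number of peaks it was 8.49% for genes with 3 or 4 and higher in each further class, up to 29.4% for those with 50 or more. Both relations are partly built in. Under an even spread, 337.5 of 2609 peaks would lie in the window in genes of 10 to 20 kb and 44.9 of 8884 in those of 200 kb or more, and a gene with more peaks has more chances to place 1 there.

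Most of the 290 genes had few gene-end peaks. One peak was found in 127 genes, 2 in 61 and 3 in 56, and the remaining 46 genes held 4 to 8 peaks and together 230 of the 647. In the median gene these peaks were 14.3% of all its peaks. They were at least 50% in 46 genes and under 10% in 113. In 9 genes, all peaks lay in the last 2000 bases: Lpl with 4, and Mfap3, Nsmaf, Pfas, Pkd2, Sirt4, Slc7a5, Ssbp1 and Zfp933 with 3 each (named after their values were seen). Lpl encodes lipoprotein lipase, Pkd2 a cation channel of primary cilia and Slc7a5 a transporter of large neutral amino acids.

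The most gene-end peaks, 8 each, were in Igfbp2, Mdc1 and Slc1a3. Igfbp2 (chr1:72824480-72852474, plus strand) had its 8 at 46, 256, 442, 577, 744, 894, 1307 and 1962 bases before the end. The gene carried 79 peaks over 28.0 kb, of which the 8 are 10.1%. In Slc1a3, the gene of the glutamate transporter of radial glia and astrocytes (chr15:8634124-8710807, minus strand), they lay at 79, 461, 709, 878, 1200, 1479, 1718 and 1945 bases and made up 6.56% of 122 peaks. The window before held 7 more, so the end of Slc1a3 continues a run of peaks. Mdc1, which encodes a mediator of the DNA damage checkpoint (chr17:35841495-35859670, plus strand), differed in that its gene-end peaks were 8 of only 10. They lay between 450 and 1882 bases before the end, and the next peak upstream was at 5917 bases.

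Among the 5 genes with 7 gene-end peaks, the same contrast appeared. In Nid1, the gene of the basement membrane protein nidogen (chr13:13437602-13512275, plus strand), 7 of 8 peaks lay 148 to 1912 bases before the end, and the remaining peak 51202 bases before it. Wdr76, a WD-repeat gene, and Ccdc157, a coiled-coil gene, each had 7 of 10 peaks there. The remaining peaks of Wdr76 included 1 at 2030 bases, just before the window. In Ccnd2, the gene of a D-type cyclin (chr6:127125162-127152188, minus strand), 7 of 51 peaks lay in the window and 7 more in the one before it. Calcrl, the gene of the calcitonin receptor-like receptor, had 7 of 25 (28%).

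**Figure D3:**
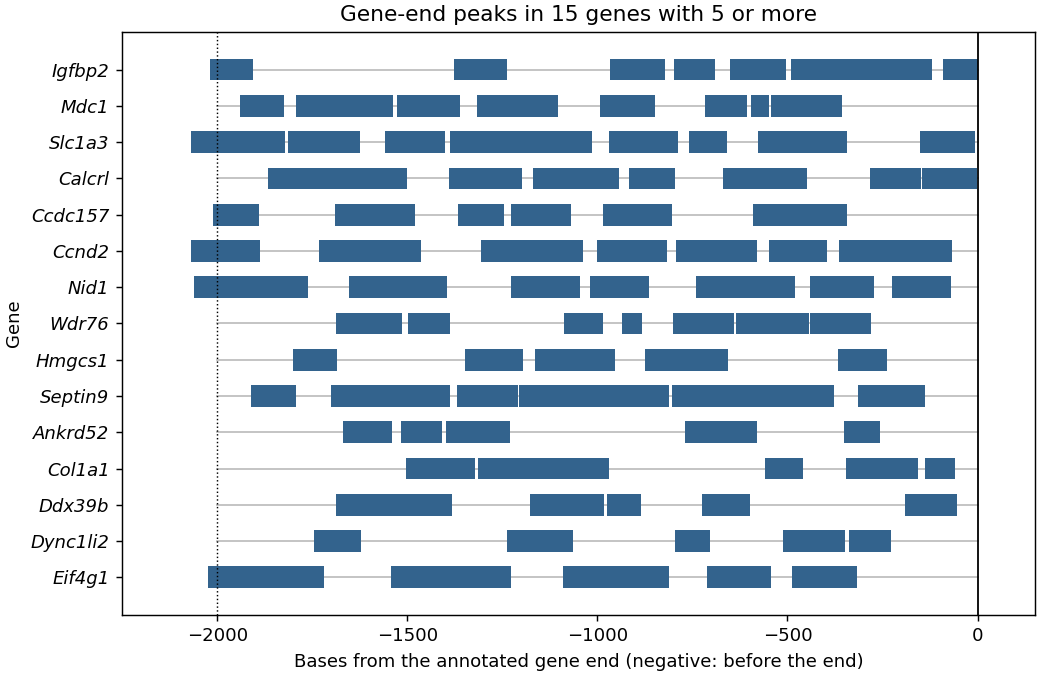
Gene-end peaks (bars drawn to their length) of 15 genes, the 10 with 6 or more and 5 with 5, by distance in bases from the annotated gene end (horizontal axis); the dotted line marks the limit of 2000 bases. The 5 genes with 5 peaks shown are the first by alphabet of 15 with that number. The last bar of Igfbp2 reaches the end and those of Slc1a3 and Calcrl stop 8 and 3 bases before it, while the last peak of Mdc1 is centred 450 bases before it.

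Further down the same ranking, Hmgcs1, which encodes an enzyme of cholesterol synthesis, and Septin9, a septin gene of the cytoskeleton, had 6 each. In Hmgcs1 the 6 were 25% of 24 peaks, the window before was empty and the start window held 7, so its peaks gathered at both ends. Septin9 had 6 of 87 over 162.7 kb. The first by alphabet of the 15 genes with 5 were Ankrd52 (62.5% of 8 peaks), Col1a1 (71.4% of 7), Ddx39b (26.3% of 19), Dync1li2 (20.8% of 24) and Eif4g1 (45.5% of 11). They encode a regulatory subunit of protein phosphatase 6, the main chain of type I collagen, an mRNA export helicase, a light intermediate chain of dynein and the scaffold of translation initiation.

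Ranked by the share of a gene's own peaks among genes with at least 5 gene-end peaks, Nid1 (87.5%), Ssr3 (83.3% of 6), Mdc1 (80%), Col1a1, Wdr76 and Ccdc157 (both 70%) led. Ankrd52 came next, followed by Hnrnpr, Eif4g1 and Rnf168, each with 5 of 11 (45.5%). Ssr3 encodes a subunit of the translocon-associated protein complex, Hnrnpr an RNA-binding protein and Rnf168 a ubiquitin ligase of the DNA damage response. In Hnrnpr the peaks lay at 414, 593, 863, 1021 and 1318 bases, and none lay between these and 14065 bases before the end. In Ssr3 the next peak was at 2061 bases, directly upstream of the window, and it was the gene's only other peak.

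Gene-end peaks covered a small part of the window in most genes and nearly all of it in a few. The median of the 290 genes was 296.5 of 2001 bases (25th to 75th percentile 150.25 to 582.75), counting every majority-strand peak that reached into the window. More than 1000 bases were covered in 19 genes. The widest cover was 1775 bases in Igf2, with 4 peaks of 364, 517, 507 and 522 bases at 177, 740, 1333 and 1870 bases (the gene lies at chr7:142650768-142666816, minus strand). Peg10, a gene derived from a retrotransposon and imprinted like Igf2, followed with 1751 bases from 4 peaks of 315, 673, 356 and 407 bases. Septin9 had 1589 covered bases, Slc1a3 1561 and Calcrl 1526.

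The longest gene-end peak was the one of 673 bases in Peg10 (chr6:4759503-4760175, plus strand). Next were peaks of 587 bases in Map2, the gene of a dendritic microtubule-associated protein, 584 in Rpa1, which encodes a subunit of the single-stranded DNA binding complex, 551 in Ncan, the gene of the proteoglycan neurocan, and 549 in Mest, another imprinted gene. These 5 lay between 493 and 1035 bases before the end.

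Length was not used by the rule. Gene-end peaks had a median length of 160 bases, beside 163 for the 6955 other peaks of the same 290 genes and 154 for the 34342 other peaks of all eligible genes. Their upper part was longer: the 90th percentile was 320 bases against 298 and 272, and 12.5% were at least 300 bases long (81 of 647) against 9.94% and 7.14%. Compared by gene medians in the 281 genes that also had other peaks, those at the end were longer in 143 genes, shorter in 134 and equal in 4, with a median difference of 2 bases. Genes with 4 or more gene-end peaks had the longer ones, with a median of 172.5 bases and 16.5% of at least 300, while those of genes with 1 had a median of 145 and 10.2%. Peaks of 1 gene share their transcript and no replicate values exist, so these differences and those in the paragraphs below were not tested.

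Gene-end peaks were spaced much like gene start peaks and slightly wider than the other peaks of their own genes (not tested). The nearest peak of the same gene and strand was at a median of 363 bases between midpoints. This median was also 363 for the peaks in the first 2000 bases, 349 for the other peaks of all eligible genes and 309 for the other peaks of the 290 genes. A neighbour lay within 500 bases for 64.1% of gene-end peaks, beside 65%, 66.7% and 75.6% of these 3 sets. For 75 gene-end peaks (11.6%) no other peak of the gene lay within 2000 bases, beside 10.9%, 9.43% and 4.92%. By the width of the window, such a peak is always the only gene-end peak of its gene. A peak near an end can have neighbours within its gene mostly on 1 side, and among those in the last 500 bases 53.7% had one within 500 bases, against 68.5% of those 1500 to 2000 bases before the end.

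Peaks beyond the annotated end were then counted by whether the end itself carried peaks. Of the 290 genes with a gene-end peak, 29 (10%) had a peak in the 2000 bases beyond, on the same strand and in no gene. Of the other 1848 genes, 30 (1.62%) did. Per Mb of countable bases beyond the end, the values were 122.8 and 19.2 peaks. The 290 genes also carried more peaks in all (median 13 against 8) over shorter spans (median 31.0 against 56.5 kb). The 1848 include the 126 genes in which no gene-end peak was possible. Whether these differences account for the contrast was not tested. A following gene wholly past the end and within 2000 bases limited these bases for 20.7% and 19.9% of the genes. Genes that overlap the end also remove such bases and are not in these shares. The countable bases beyond the end came to 0.489 Mb for the 290 genes and 3.25 Mb for all 2138. The values per Mb allow for this, while the shares of genes with a peak beyond the end do not. Qk, the gene of the RNA-binding protein quaking, had 5 gene-end peaks and 3 beyond the end, and Epn2 had 2 and 4. None of Igfbp2, Mdc1, Slc1a3, Calcrl, Ccdc157, Ccnd2, Nid1 and Wdr76, the genes with 7 or 8 gene-end peaks, had a peak there. For Mdc1, Wdr76 and Ccdc157, 640, 668 and 1676 bases lie between the end and the next annotated gene, so only part of the 2000 bases could be counted.

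The gene lists, which were chosen with earlier results of these data known, asked which functional groups had gene-end peaks. Over all 2138 eligible genes, 13.6% had at least 1, and each list is given by the number of its eligible genes, those with 3 or more peaks and a span of at least 10 kb. The counts are descriptions and no list was tested. In every list with 5 or more eligible genes except the neural progenitor genes, the median number of gene-end peaks per gene was 0, as over all genes. Lists also differ in span and in peaks per gene, both of which move with the share of genes that have a gene-end peak.

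Of 13 eligible neural progenitor genes, 9 (69.2%) had a gene-end peak. Slc1a3 led with 8 and Nfix, a nuclear factor I gene, had 4. Next came 2 each in Msi2, which encodes an RNA-binding protein of stem cells, and in the E-protein genes Tcf12 and Tcf4. Nfia, Nfib, Ptprz1 and Zeb1 had 1 each. In these genes the end held a minor share, 22 of 1873 peaks (1.17%, beside 1.85% over all genes), and the median was 1 gene-end peak per gene. The single gene-end peak of Nfia was 1 of 273. The 4 without one were Notch1, Meis1, Meis2 and Npas3. A further 27 genes of the list, the short progenitor marker genes Sox2 and Nes among them, were not eligible, so the list does not check the cell type by expression. Of the lists for other cells, the one for mature neurons had 1 eligible gene, Camk2b, without a gene-end peak, and those for astrocytes and oligodendrocytes and for pluripotency had 0. The mesoderm, endoderm and fibroblast list had 2, the collagen genes Col1a1 and Col3a1, and both had gene-end peaks (5 and 4).

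Of 26 eligible splicing and RNA processing genes, 9 (34.6%) had a gene-end peak. Qk had 5, Ddx17, the gene of a DEAD-box helicase, 4, and Snrnp70, which encodes a protein of the U1 particle, 3. The other 17 included Hnrnpc, Rbm25, Rbm39 and Sfpq. Of 13 genes for 3′ end formation and transcription termination, 1 had a gene-end peak (7.69%, beside 13.6% over all genes). It was Nudt21, which encodes a subunit of cleavage factor Im, with 3 of its 6 peaks at 367, 1428 and 1717 bases. Of 11 translation factor genes, 2 had them (18.2%), Eif4g1 (5) and Eif3a (1). Among 8 eligible genes for double-stranded RNA binding and editing, 1 had a gene-end peak, Dhx9 itself (12.5%, near the 13.6% over all genes). Its peak (1 of 32) lay 393 bases before the end and was 342 bases long.

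Growth factor and receptor signalling genes had gene-end peaks in 5 of 19 (26.3%). Besides Igfbp2 these were Map4k4 and Spry4 with 4 each, Igfbp5 with 3 and Irs2 with 1. Map4k4 encodes a stress-activated kinase, and its 4 were 1.50% of 267 peaks, at 265, 765, 1028 and 1383 bases. In Spry4, an inhibitor gene of receptor tyrosine kinase signalling, they were 4 of 42. Cell cycle genes had them in 2 of 6 (33.3%), namely Ccnd2 and Top2a (1 at 1824 bases). Cytoskeleton and vesicle traffic genes had them in 3 of 15 (20%): Map2 with 5, Fscn1, the gene of an actin bundling protein, with 4, and Rab6a with 1.

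Chromatin regulators lay near the share of all genes, with 4 of 31 (12.9%). Among them, Setd5 had 3, the remodeller gene Chd4 had 2 and the demethylase gene Kdm6b had 1. Of 13 Wnt and Notch pathway genes 1 had a gene-end peak (7.69%), the Notch coactivator gene Maml1. The neural adhesion and guidance genes had none among 18 eligible genes, which together carried 1759 peaks. They include Auts2, Kirrel3, Pcdh9 and Robo1. No ribosomal protein gene of the list was eligible.

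**Figure D4:**
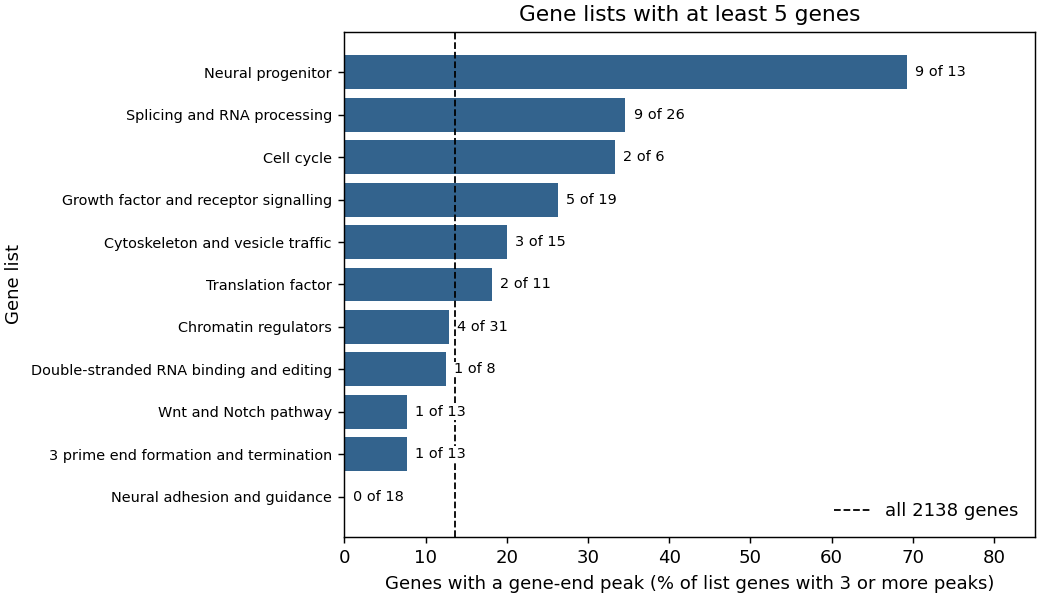
Share of eligible genes with at least 1 gene-end peak (horizontal axis, %) for the gene lists with 5 or more eligible genes (vertical axis), with the counts beside the bars and all 2138 genes (13.6%) as a dashed line. The bar for neural progenitor genes is the longest, at 69.2%, and neural adhesion and guidance genes had 0 of 18.

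Gene-end peaks came from all 19 autosomes. Chromosome 11 held the most, 104 in 49 of its 228 eligible genes (21.5%). The lowest share of eligible genes was on chromosome 16, with 5 of 77 (6.49%), and chromosome 13 had 4 of 61 (6.56%). As a share of peaks, the values ran from 0.792% on chromosome 12 to 2.48% on chromosome 11.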

How the data were processed

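Per the file itself, the authors made the deposited list with PEAKachu, a peak caller that sets pull-down against control libraries. It holds positions only: the score column is empty, and no count, depth or library is named. The aligner named in the submitters' processing notes is Bowtie2 2.2.6, beside the builds hg19 and mm10. The caller's settings and the treatment of reads with several map positions are not given in the sources used here. Reads shared between paralogs can therefore be misplaced.

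Gene spans came from a RefSeq table of GRCm38.p6 (mm10), strands and sequences from its promoter and microRNA tables. Counts, medians and densities were computed with Python 3.11.15, pandas 2.3.3 and scipy 1.17.1, and the counting was tested on simulated data. Densities use bases in exactly 1 gene span, or in no span beyond the end. The members and lists were chosen with earlier results of these data known. Named genes were the 15 with the most gene-end peaks (ties by alphabet), the 10 with the highest share of their own peaks among genes with at least 5, up to 3 per list, those of the 5 longest and 5 closest peaks and of the 3 on each side of the limit, and Dhx9; others are marked as chosen afterwards, or were looked up for sequence or strand. Further members of the 16 lists, with gene-end peaks (Tcf12, Tcf4, Nfib, Ptprz1, Zeb1, Igfbp5, Irs2, Kdm6b) or without, were named after their values were seen. Some genes that this rule takes are left out of the text.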

Additional observations from a re-analysis of the deposited data

Results flagged for a closer look

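Outside the rule, genes of chromosome X and short genes carried peaks at their ends too, and some peaks lay on the other strand. On chromosome X, 12 gene-end peaks lay in 4 of 53 genes that met the other conditions (1.95% of their 616 peaks): Gnl3l had 6 and Ids had 4. In genes shorter than 10 kb, 183 peaks lay in the last 2000 bases, in 77 of 139 genes. That is 24.1% of their 760 peaks, in genes where the window is a larger part of the span. On the other strand of the end windows there were 4 peaks, 3 of them in Prr14 and 1 in Adat1. These counts were drawn out because they are above the limit of 3 that a count of 0 allows and enter no comparison. The list gives no IgG signal at these places.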

How the results depend on the processing

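No paired analysis was possible because the single peak list holds no value per library, and for the same reason no replicate could be left out. With a window of 1000 bases there were 283 gene-end peaks (0.809%) in 178 genes, 0 genes with gene-end peaks only, and ratios of 0.890 to the rest of the span, 0.891 to the start and 0.469 to an even spread. A window of 5000 bases gave 1986 (5.68%) in 601 genes, 59 genes with such peaks only, and ratios of 1.22, 0.571 and 0.639, with 7.15 for inside over beyond. Peaks of at least the median length left 318 in 168 genes, with a median length of 220 bases and 5 genes with such peaks only; fewer peaks are counted there by construction. The ratio to the rest of the span, 1.01 as reported, was also below 1 after merging peaks within 50 bases (0.945), with spans of at least 20 kb (0.886), with at least 5 peaks per gene (0.934), without chromosomes 8 and 11 (0.985) and with the annotated strand (0.983), which was added after the data were seen, as was the ratio to an even spread with all its alternatives; without genes of 50 or more peaks it was 1.23. The cause was not tested. The share of peaks was 1.41% with spans of at least 20 kb, 1.69% with at least 5 peaks and 2.43% without genes of 50 or more. Genes with gene-end peaks only numbered 0 with at least 5 peaks, 64 with at least 1, and 5 without chromosomes 8 and 11 and with the annotated strand. The other 76 of 108 values moved by less than 1.5 times (counts) or stayed within a 95% binomial interval. The ratio to the start stayed below 1 and inside over beyond stayed above 4 throughout. With a window of 1000 bases, however, the 95% interval of the ratio to the start was 0.756 to 1.05 and included 1. Every alternative still chose genes by peaks inside the span, so the ratio of inside over beyond stays partly built in. Read depth is unknown and limits which peaks could be called.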
